A study of Rattus norvegicus with 3 samples.

Results

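Genes of cholesterol synthesis, uptake, storage, sensing and efflux were followed in rat RNA labelled as adrenal medulla, taken during exposure to cold. Each sample title names the tissue after the words Multiple Organs, whose meaning is not explained. A gene was included if it stood on a list of 32 such genes and had at least 1 probe set annotated to it alone on the array. This gave 30 of the 14217 genes with such a probe set, since no probe set of this kind was found for Hmgcs1 and Npc1. Each gene was represented by its brightest probe set over array b of 1 day and the array of 7 days. The samples were 2 arrays of rats exposed to cold for 1 day, called a and b, and 1 array for 7 days, all from total RNA. Unexposed rats were not analysed here, so the comparison is of 7 days with 1 day of exposure. Strain, sex, age and pooling of the rats are not given in the labels, which also leave unsaid whether the replicates are separate animals, and their spread may be technical.

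Cells make cholesterol from acetyl-CoA by way of mevalonate, farnesyl diphosphate, squalene and lanosterol, and also take it up in lipoproteins, which lysosomes break down. When membrane cholesterol in the endoplasmic reticulum is low, Scap carries the SREBP transcription factors (genes Srebf1 and Srebf2) to the Golgi, where they are cleaved and released to switch on synthesis genes, and Insig proteins hold this transport back when sterols are plentiful. In the adrenal gland cholesterol is the raw material of the cortex's steroid hormones and is stored there as esters, while the chromaffin cells of the medulla make catecholamines.

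The arrays did not match each other equally well. The beta-actin 3′/5′ signal ratio was 231 for 1-day array a, 6.11 for 1-day array b and 8.87 at 7 days, and the median intensity over all probe sets was 1583, 593 and 675. Among the 15521 probe sets kept by a filter on low values, log2 differences had an SD of 1.43 for the 1-day pair and 0.39 for the 7-day array against 1-day array b. Intensities are therefore given for each array, and every difference below is on the log2(intensity + 16) scale. Differences from array b between 0 and 0.18 turn negative if each array is centred on the median of all its gene probe sets. Defining genes of both parts of the gland were bright, with Th, which catalyses the slowest step to catecholamines, at 79575 and 193597 on 1-day arrays a and b and at 224786 after 7 days, and Cyp11a1, which starts steroid synthesis in the cortex, at 156227, 154155 and 199562 in that order. The labelled medulla RNA thus also held cortex transcripts, and in such bulk RNA a change in the share of a cell type and a change in RNA per cell cannot be told apart.

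After 7 days 19 of the 30 cholesterol genes (63.3%) exceeded both 1-day arrays and 3 (10%) lay below both. Over the 9252 genes kept by the filter, with 1 probe set each chosen in the same way, 25.5% read above both and 24.1% below both, and over the 15521 kept probe sets these shares were 22.4% and 25.3%. At least 2-fold above both were 0 of the 30 (0.0387% of kept probe sets, 0.0324% of kept genes), and 0 were as far below both (0.341% and 0.227%). All 30 chosen probe sets passed the filter. With a gene's probe sets averaged in place of choosing 1, 14 of the 30 read above both 1-day arrays and 4 below both. With each array centred on all its gene probe sets, 11 of the 30 read above both and 0 below both. The matching shares of the kept genes were not worked out for either choice. Relative to the 1-day mean, the median difference was 0.58 for the cholesterol genes and 0.05 for the kept genes. Much of the larger value came from 1-day array a, against which the cholesterol median was 0.83, while against 1-day array b it was 0.12 (kept genes 0.08 and -0.01). The members were proposed with earlier results of these data known, so these counts describe the arrays and test nothing.

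In limma's test of 7 days against 1 day, 0 of 15521 probe sets (0% called) had a Benjamini-Hochberg adjusted p under 0.05, and 70 had an unadjusted p under 0.05. The cholesterol genes supplied 47 of these probe sets, of which 0 passed. By limma the chosen set of Sqle (unadjusted p = 0.0448) and the second set of Idi1 had an unadjusted p under 0.05. On 1-day array a these sets read 961 and 2996, against 9386 and 15959 on array b. The fit has 1 residual degree of freedom, from the 1-day pair, and no spread of its own for 7 days. A gene's SE therefore reflects its intensity rather than its own replicates, and it ran from 0.90 to 1.19 over the 30 genes.

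**Figure D1:**
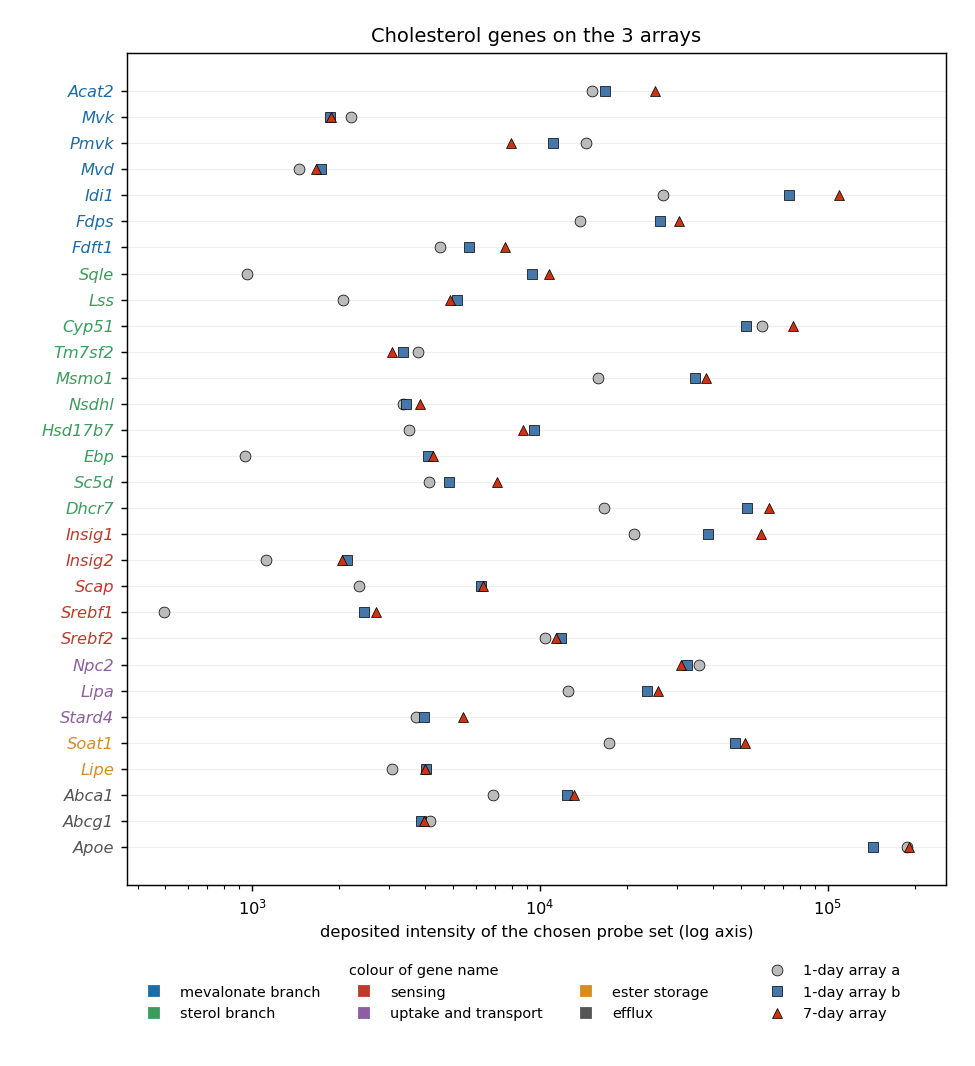
Deposited intensity of the chosen probe set of each of the 30 cholesterol genes for replicate a of 1 day (circles), replicate b of 1 day (squares) and 7 days (triangles), on a log axis, with gene names coloured by role. The triangle is the rightmost symbol for 19 genes and the leftmost for 3 (Pmvk, Tm7sf2 and Npc2), and the circle lies left of the square for 23.

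The mevalonate branch, from acetyl-CoA to squalene, held 4 genes above both 1-day arrays among the 7 measured, and 1 below both. Acat2, here the cytosolic thiolase that joins acetyl-CoA units at the start of the pathway, read 15141 and 16792 on 1-day arrays a and b, and 25019 after 7 days. The 1-day values lay close together, and the 7-day value was higher by 0.72 and 0.57. Idi1, which isomerises the isoprene unit, read 26740, 73216 and 109632, higher by 2.03 and 0.58. Fdft1, the squalene synthase, read 4502, 5691 and 7565, differences of 0.75 and 0.41. For Acat2 and Fdft1 the order of the arrays did not turn on 1-day array a alone, since the 1-day arrays were closer to each other than either was to the 7-day array.

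Fdps, which makes farnesyl diphosphate, read 13799, 26035 and 30290 in the same array order, differences of 1.13 from array a and 0.22 from array b. The kinase and decarboxylase steps behaved otherwise. Mvk, the mevalonate kinase, read 2203, 1868 and 1886, and Mvd, the mevalonate diphosphate decarboxylase, 1452, 1735 and 1672, so that the 7-day value lay between the 1-day values for each. Pmvk, the phosphomevalonate kinase that acts between them, read 14431, 11116 and 7947, lower by 0.86 and 0.48. It was the lowest of the 30 genes against either 1-day array.

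In the sterol branch, from squalene to cholesterol, 7 of 10 genes read above both 1-day arrays and 1 below both. Cyp51, the lanosterol demethylase, read 59151, 51925 and 75957 and so exceeded the 1-day arrays by 0.36 and 0.55. Sc5d, which puts a double bond into the sterol ring, read 4130, 4833 and 7113, differences of 0.78 and 0.56, though its set that was brightest over the 3 arrays gave -0.10 against array b and the mean of its sets 0.17. These were the branch's largest differences from array b, and the 1-day arrays differed by less than either did from the 7-day array.

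Sqle, the squalene epoxidase and a rate-limiting enzyme of the branch, showed the widest gap between the 1-day arrays, at 961 and 9386, with 10784 at 7 days. The difference of 3.47 from array a thus shrank to 0.20 against array b. The same held for Dhcr7, the last enzyme of one route to cholesterol, which read 16632, 52175 and 62459 (1.91 and 0.26), and for Ebp, a sterol isomerase, which read 944, 4094 and 4245 (2.15 and 0.05). Msmo1, a sterol methyl oxidase, read 15877, 34471 and 37666, higher by 1.25 and 0.13. Nsdhl, which helps remove the same methyl groups, read 3346, 3419 and 3833, small differences of 0.20 and 0.16 with close 1-day values.

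The remaining enzymes of this branch were not higher than array b. Lss, which closes squalene epoxide into lanosterol, read 2066, 5165 and 4882, and Hsd17b7, a sterol ketoreductase, 3511, 9527 and 8736, both between the 1-day arrays and higher than array a by 1.23 and 1.31. Tm7sf2, a sterol reductase, read 3781, 3350 and 3061, lower by 0.30 and 0.13. Across both branches 12 of 17 enzymes were higher than array b and 5 lower, with a median of 0.16.

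Among the chosen sets of the sensing genes, the sterol-regulated Insig1 differed most from array b, and Srebf1 most from array a. Insig1 read 21279 and 38297 on 1-day arrays a and b, and 58509 after 7 days, higher by 1.46 and 0.61, the largest difference from array b among the 30 genes. Insig2, its relative, read 1118, 2131 and 2058 and lay between the 1-day arrays, 0.87 above array a. The escort gene Scap read 2350, 6259 and 6317, higher by 1.42 and 0.01. Srebf2, the SREBP that mainly serves cholesterol genes, read 10416, 11833 and 11383, and Srebf1, which mainly serves fatty acid genes, read 494, 2453 and 2697. Against array b these stood at -0.06 and 0.14, closer than Insig1 did, and against array a at 0.13 and 2.41, on either side of Insig1. A second kept set of Srebf1 stood at 0.16 against array b but at -0.80 against array a. Srebf2 had a dim second set, below the filter, at 235, 16 and 56, which stood at 1.16 and -1.81 against arrays b and a.

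Uptake and transport was covered by 3 measured genes, none of them a lipoprotein receptor. Stard4, which carries cholesterol between membranes in the cytosol, read 3697, 3945 and 5391, higher by 0.54 and 0.45 with close 1-day values. Lipa, the lysosomal acid lipase that frees cholesterol from lipoprotein esters, read 12492, 23562 and 25670, higher by 1.04 and 0.12. Npc2, which moves that cholesterol out of the lysosome, read 35821, 32535 and 30828, lower by 0.22 and 0.08. These genes thus did not share a direction.

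Ester storage was represented by Soat1, which esterifies cholesterol, and Lipe, the hormone-sensitive lipase that frees it again. Soat1 read 17376 on array a, 47613 on array b and 51386 at 7 days, differences of 1.56 and 0.11. Lipe read 3058, 4034 and 4001, higher than array a by 0.39, with a difference of -0.01 from array b that became 0.03 after quantile normalisation or centring on the kept probe sets, and 0.02 once the intensity trend was removed.

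Efflux genes were close to array b except for Apoe. Abca1, which loads cholesterol onto lipid-poor apolipoproteins, read 6877, 12453 and 13109, and Abcg1, which passes it to larger particles, 4139, 3873 and 3939, differences of 0.07 and 0.02 from array b, and of 0.93 and -0.07 from array a. Apoe, the apolipoprotein E gene, read 188005, 143870 and 190635, higher than array b by 0.41 but than array a by only 0.02. That difference from array b was 0.14 after quantile normalisation and 0.30 without the intensity trend, the widest range over these scalings among the 8 genes at least 1.3-fold above array b.

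**Figure D2:**
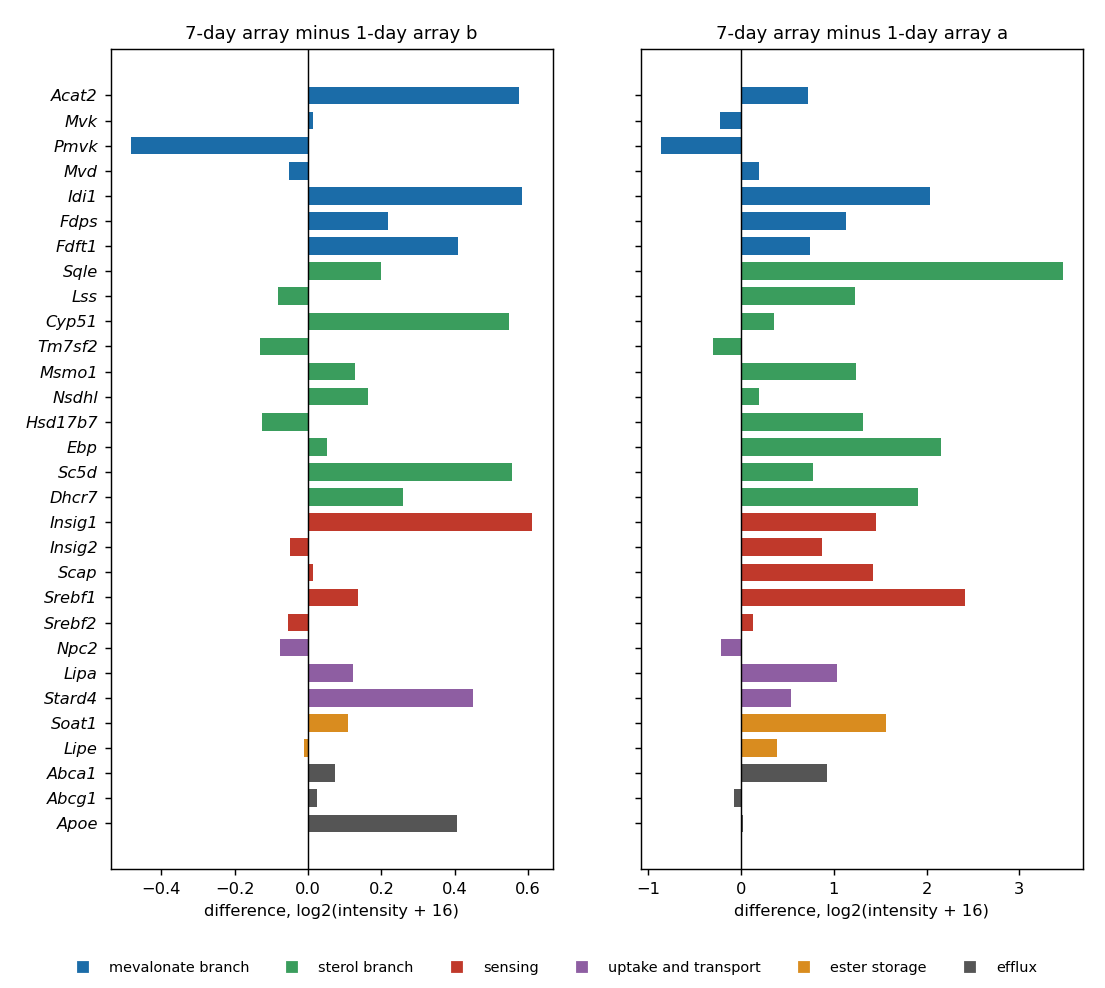
Difference of the 7-day array from 1-day array b (left) and from 1-day array a (right) for each of the 30 genes, in log2(intensity + 16) units, coloured by role; the panels have different scales. Against array b the bars run from -0.48 (Pmvk) to 0.61 (Insig1), and against array a from -0.86 (Pmvk) to 3.47 (Sqle).

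Set against 1-day array b alone, 21 of the 30 genes read higher on the 7-day array and 9 lower, where 48.5% of the kept genes read higher and 51.5% lower. This compares 1 array with 1 array, so it has no p-value. At least 1.5-fold higher was Insig1 alone, or 3.33% of the genes against 4% of kept genes and 6.73% of kept probe sets, with Idi1 just short of that line. At least 1.5-fold lower were 0 of 30 (3.33% of kept genes, 4.03% of kept probe sets). At least 2-fold apart from array b were 0 of 30 in either direction (higher in 0.843% of kept genes and 1.84% of kept probe sets, lower in 0.443% and 0.561%). At a smaller fold of 1.3, chosen after the values were seen, 8 genes were higher, 26.7% against 9.73% of the kept genes. They were Insig1, Idi1, Acat2, Sc5d, Cyp51, Stard4, Fdft1 and Apoe, from 1.53-fold down to 1.33-fold. With each array centred on all its gene probe sets 3 of them remained at 1.3-fold, namely Insig1, Idi1 and Acat2, while quantile normalisation or removal of the intensity trend gave 7 genes at that fold. Pmvk alone was 1.3-fold lower, or 3.33% against 10.2%. The SD of the difference from array b was 0.26 over the cholesterol genes and 0.33 over the kept genes, chosen in the same way.

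By role, the median difference from array b was 0.22 in the mevalonate branch, 0.15 in the sterol branch, 0.01 in sensing, 0.12 in uptake and transport, 0.05 in ester storage and 0.07 in efflux. The roles overlapped, since the mevalonate, sterol, sensing, transport and ester storage genes each lay on both sides of 0, Lipe only at -0.01. Against array a the same medians were 0.72, 1.24, 1.42, 0.54, 0.97 and 0.02, an order that did not match. The ranking of the roles therefore depends on which 1-day array is used.

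The signs against array b were also read under other scalings. Quantile normalisation, centring on the kept probe sets and removal of the intensity trend each left 22 genes higher, with Lipe as the 1 gene to turn. Of the 9252 kept genes, 4657, 5065 and 4500 read higher in that order. Centring each array on all its gene probe sets, an alternative added after the data were seen, takes 0.18 off every difference. It left 11 of the 30 genes higher, beside 2247 of the 9252 kept genes. These 11 were the 8 at 1.3-fold with Fdps, Sqle and Dhcr7. The cholesterol median turned to -0.07, beside -0.19 for the kept genes.

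**Figure D3:**
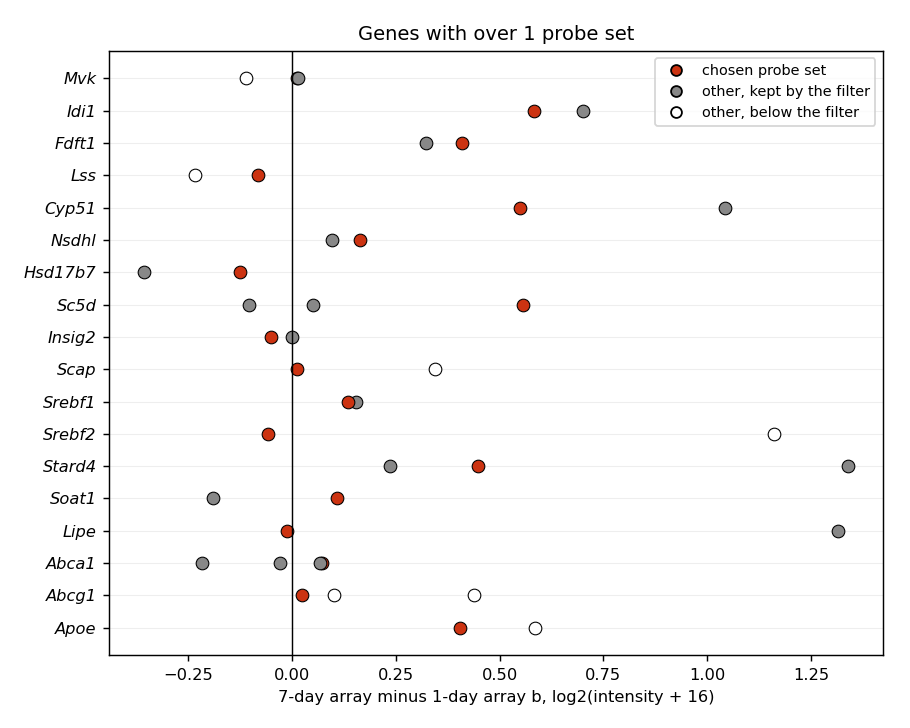
Difference of the 7-day array from 1-day array b, in log2(intensity + 16) units, for every probe set of the 18 genes with over 1 probe set; red marks the chosen set, grey another set kept by the filter and white a set below it. All sets lie on 1 side of 0 for 11 genes, among them Idi1, Cyp51, Stard4 and Fdft1, and on both sides for 7, among them Sc5d.

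Second probe sets gave a further reading within the same arrays. All probe sets lay on 1 side of array b for 11 of the 18 genes with over 1 set. Cyp51 had a second set at 4862 on array a, 8691 on array b and 17913 at 7 days, a larger difference from array b (1.04) than its chosen set. The second set of Idi1 read 2996, 15959 and 25934 (0.70), and that of Fdft1 4221, 2098 and 2630 (0.32), where array a and not array b was the highest. Stard4 had other sets at 0.24 and 1.34, the latter a dim set at 285 on array b and 745 at 7 days, below the 2484 of array a.

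Sc5d was the exception among the larger differences. Its other sets read 5400 and 5601, and 5593 and 5208, on array b and the 7-day array, differences of 0.05 and -0.10 where the chosen set gave 0.56. A second set of Soat1 stood at -0.19 and the sets of Abca1 ran from -0.21 to 0.07, so for these genes no direction against array b was shared by the sets. Lipe had a second set at 557 and 1410 (1.31), which read 5479 on array a. When a gene's probe sets were averaged in place of taking the brightest, 20 of 30 genes were higher than array b and 5 had another sign than before.

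The 1-day arrays parted on many of these genes. Array a was below array b for 23 of 30 genes (76.7%, against 53.3% of kept genes), and 10 of 30 were at least 2-fold apart (33.3%, against 40%). By chosen sets the sterol branch held 6 of these 10, and the groups of uptake and transport and of efflux held 0. Other kept sets of Stard4 (2484 and 285 on arrays a and b) and Abca1 (4248 and 12907) were at least 2-fold apart. By their chosen sets all 5 sensing genes were lower on array a, with Srebf1 at 494 against 2453. A second kept set of Srebf1 went the other way, at 1455 on array a, 743 on array b and 830 at 7 days. RNA quality, as read from the actin ratio, also differed between these arrays, and its part in the gap was not tested.

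Promoters are shown for the genes whose chosen sets had the 5 largest differences from array b, to set their start-site sequences side by side. For Sc5d the other probe sets did not share that difference. They come from RefSeq, build GRCr8, from 250 bases before to 50 after the start, 5′ to 3′ on the gene's strand: Insig1 at chr4:8057720-8058019, minus strand; Idi1 at chr17:66547475-66547774, minus strand; Acat2 at chr1:50100590-50100889, plus strand; Sc5d at chr8:51538228-51538527, minus strand; and Cyp51 at chr4:30991443-30991742, plus strand. Capitals mark the CCAAT box, read as CCAAT or its reverse ATTGG, and the GC box, read as GGGCGG or its reverse CCGCCC.
Insig1: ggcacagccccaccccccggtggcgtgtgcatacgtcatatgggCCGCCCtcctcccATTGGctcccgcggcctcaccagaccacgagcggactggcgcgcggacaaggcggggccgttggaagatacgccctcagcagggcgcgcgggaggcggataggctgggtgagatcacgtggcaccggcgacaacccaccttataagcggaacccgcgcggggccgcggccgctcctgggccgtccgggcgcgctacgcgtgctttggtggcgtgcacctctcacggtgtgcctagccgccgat
Idi1: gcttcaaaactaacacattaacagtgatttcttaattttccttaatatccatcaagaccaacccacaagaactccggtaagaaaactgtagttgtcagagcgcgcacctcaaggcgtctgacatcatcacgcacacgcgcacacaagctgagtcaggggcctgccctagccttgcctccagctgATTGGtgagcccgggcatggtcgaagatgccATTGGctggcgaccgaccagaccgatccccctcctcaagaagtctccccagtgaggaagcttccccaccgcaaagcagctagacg
Acat2: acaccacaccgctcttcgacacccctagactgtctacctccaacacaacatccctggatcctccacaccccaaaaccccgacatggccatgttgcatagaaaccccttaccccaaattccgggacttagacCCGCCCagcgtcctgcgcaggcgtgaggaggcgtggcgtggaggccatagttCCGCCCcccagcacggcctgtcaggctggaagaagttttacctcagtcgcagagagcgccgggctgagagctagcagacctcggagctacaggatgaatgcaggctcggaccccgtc
Sc5d: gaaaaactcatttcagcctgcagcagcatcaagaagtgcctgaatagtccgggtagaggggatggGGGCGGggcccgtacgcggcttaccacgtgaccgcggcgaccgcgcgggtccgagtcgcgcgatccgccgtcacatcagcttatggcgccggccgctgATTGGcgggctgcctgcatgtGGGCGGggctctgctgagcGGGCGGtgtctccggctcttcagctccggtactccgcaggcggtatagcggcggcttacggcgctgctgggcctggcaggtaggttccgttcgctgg
Cyp51: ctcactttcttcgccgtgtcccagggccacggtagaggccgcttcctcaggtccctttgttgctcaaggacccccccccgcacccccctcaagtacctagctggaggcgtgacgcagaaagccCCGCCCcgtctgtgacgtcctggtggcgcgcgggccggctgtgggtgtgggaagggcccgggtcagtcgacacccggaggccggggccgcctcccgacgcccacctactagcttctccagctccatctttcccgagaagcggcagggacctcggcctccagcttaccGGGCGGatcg

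Entries were found for 24 of the 30 genes and not for Pmvk, Fdft1, Sqle, Stard4, Lipe and Abcg1. CCAAT on either strand was in 18 of 24 (75%), beside 37.7% of all 27457 promoters of that length and 38.4% of the 19005 of protein-coding genes. GGGCGG was in 19 of 24 (79.2%), beside 34.9% and 43.1%. Of the promoters printed, Insig1 and Sc5d held both, Idi1 held CCAAT alone and Acat2 and Cyp51 GGGCGG alone. The sterol regulatory element core TCACNCCAC, to which SREBPs are known to bind, was in 0 of 24 windows and in 1.13% of all promoters. Only this string was searched, without variant elements, and with so low a share a count of 0 in 24 windows says little. Matches of different motifs did not overlap, though Dhcr7 held GGGCGG matches that overlapped each other. Hsd17b7, which read lower than array b, held 3 of each box in its window.

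A wider list of sterol-related genes did not lean the same way. It was mixed, with lipoprotein receptor and fatty acid synthesis genes among them. Of 37 listed, 35 were measured and 31 passed the filter, and of these 8 read above both 1-day arrays and 8 below both, with a median of -0.02 against array b and 0.19 against array a. The highest by the smaller of their differences were Pgrmc1, a sterol-binding membrane protein gene, at 70773, 99245 and 134912, Lrp1, a lipoprotein receptor gene, at 6233, 6036 and 7541, and Acly, which supplies cytosolic acetyl-CoA, at 23108, 32126 and 36906. The lowest were Apoa1 (131, 245 and 38) and Lcat (1329, 599 and 326), both below the filter, and Stard5, another sterol carrier gene, at 1547, 1041 and 489. Ggps1, which takes farnesyl diphosphate away from sterols, read 2209, 1552 and 2323.

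**Figure D4:**
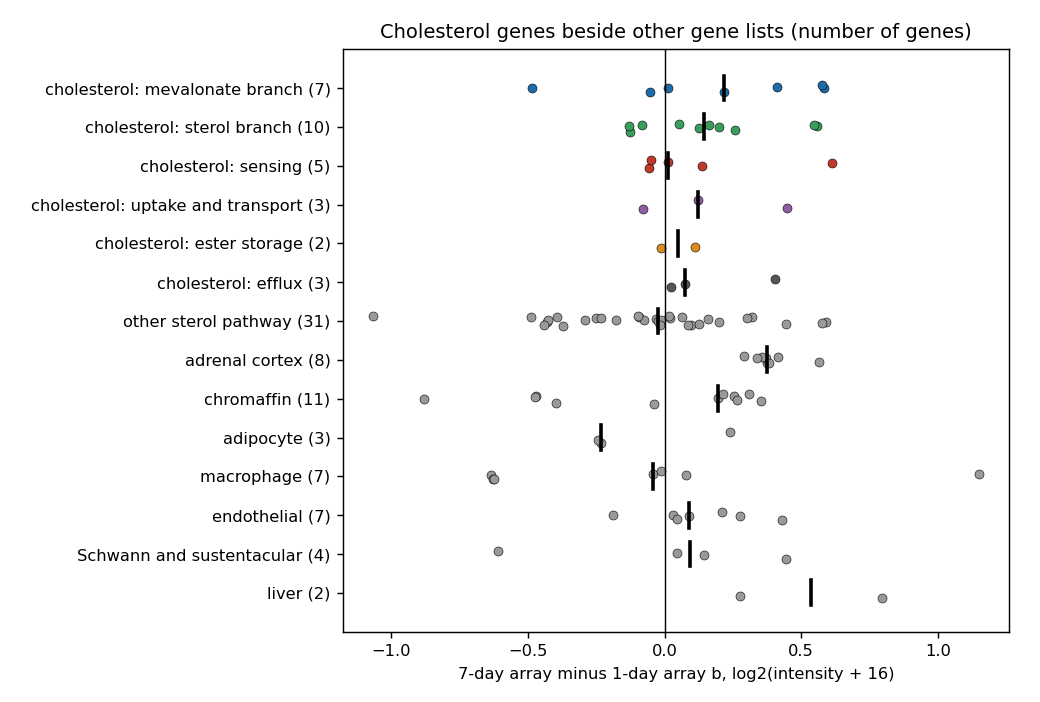
Difference of the 7-day array from 1-day array b, in log2(intensity + 16) units, for the cholesterol genes by role (coloured) and for the genes of other lists that passed the filter (grey), with the number of genes in brackets and a bar at each median. All 8 adrenal cortex genes lie between 0.29 and 0.57, within the upper part of the cholesterol genes' range.

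Markers of the adrenal cortex also read higher than array b, but not all of them higher than array a. All 8 cortex genes that passed the filter, of 9 measured and 12 listed, read higher than array b, by a median of 0.37, which was 0.18 after quantile normalisation and 0.26 without the intensity trend. Against array a 5 of these 8 read higher and 3 lower, Fdx1 (-0.90), Cyp21a1 (-0.79) and Hsd3b1 (-0.70), with a median of 0.40. Their summed intensity was 1516250 on array a, 938016 on array b and 1222920 at 7 days, so it was highest on array a. Cyp11b1, of corticosterone synthesis, read 2012, 33603 and 49727. Of the 11 measured chromaffin markers 6 were higher than array b (2 with quantile normalisation) and 6 higher than array a, with summed intensities of 2448800, 1148100 and 1308660 in the same order. The part of cortex cell content in the cholesterol genes' values was not tested.

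Markers of other cell types differed from list to list. Of 11 adipocyte markers 3 passed the filter, 1 of them higher than array b, with a sum of 11258, 22935 and 24591, most of it from Cidea, a lipid droplet protein gene, at 6291, 15428 and 18241. Below the filter, Ucp1 read 156, 31 and 35, Adipoq 1450, 274 and 409, Plin1 1510, 286 and 42, Lep 2062, 20 and 198 and Fabp4 96, 555 and 65. Macrophage markers that passed the filter, 7 of 9, had a median of -0.04 against array b (0.21 against array a) and a sum of 13517, 26580 and 23055. Of 7 endothelial genes 6 read higher than array b, or 3 with each array centred on all its gene probe sets. Their median was 0.09 (0.10 against array a), and against array a 4 read higher and 3 lower. Tek read 14360, 14446 and 15388 and Kdr 10158, 11649 and 12016, while Pecam1 read 7695, 2576 and 2985. The 4 genes of Schwann and sustentacular cells had a median of 0.09 (0.16 against array a) and the 2 liver genes above the filter 0.54 (-0.59 against array a), while Alb read 979, 137 and 226. No defining marker of these lists was listed at 0.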

How the data were processed

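Values deposited by the authors are linear intensities, 1 for each probe set on an array, summarised and scaled before deposit. Their 2% trimmed means were 2501 on each of the 3 arrays, so the scaling to a common level is read from the values, and its software is not given in the sources used here. Groups and replicate letters came from the sample titles. Values were turned into log2(intensity + 16), and 57 control probe sets were left out of the comparisons. Of 31042 others, the 15521 at or above the median mean log2 value (9.60) were kept for tests. Names came from the platform annotation, updated through Entrez identifiers to RefSeq symbols of assembly GRCr8. All 3 arrays were fitted in limma (lmFit, then eBayes with a trend). The two-sided p-values were adjusted by Benjamini-Hochberg over all kept probe sets, with a threshold of 0.05. The limma steps were run on simulated arrays whose spread was taken from 1-day array b and the 7-day array. The real 1-day pair differed more, so that run does not show which changes could be called here. Arrays limit the precision by their number.

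The members, lists and tests were chosen with earlier results of these data known. Each member was named with its values. From the wider list of sterol-related genes, the 3 highest and 3 lowest by the smaller difference from the 1-day arrays were named. Ggps1 and the markers other than Th, Cyp11a1, Cyp11b1, Ucp1, Adipoq and Alb were named after their values were seen. As alternatives, pseudocounts of 1 and 64 were tried, with quantile normalisation, centring on kept or all probe sets, removal of a loess trend (span 0.5), other filters, other limma settings, other probe set choices and removal of each 1-day array. R 4.3.3, limma 3.58.1, Python 3.11.15 and matplotlib 3.10.9 were used.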

Additional observations from a re-analysis of the deposited data

How the results depend on the processing

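Limma made 0 calls, overall and among the member probe sets, under every one of the 9 other settings run, with 1 to 95 probe sets at an unadjusted p under 0.05. Leaving out a 1-day array took the genes below the remaining one to between 5 and 9 (3 below both), those at least 2-fold above to between 0 and 13, those above to between 21 and 25, and the median difference to between 0.12 and 0.83. With 1-day array a as the comparator in place of b, the median was 0.83, and by role 0.72 (mevalonate branch), 1.24 (sterol branch), 1.42 (sensing), 0.54 (uptake and transport) and 0.97 (ester storage). Centring on all probe sets left 11 genes above both 1-day arrays and 0 below both, gave a median of 1.09 against the mean of the 1-day arrays, and medians against array b of 0.036 (mevalonate branch), -0.058 (uptake and transport) and -0.11 (efflux). The efflux median became 0.19 with the mean of all probe sets. Pseudocounts of 1 and 64 turned the sign of 0 genes against array b. No paired analysis was made, since the labels do not say that a shared replicate letter links a 1-day array to the 7-day array. With 1 array at 7 days, no setting measures the spread between samples at that time.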
